A study of Homo sapiens and Mus musculus with 7 samples.

Results

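Control HEL cells grown with hemin were compared with control HEL cells grown without it. The members are all genes of the deposited expression table, each taken as the transcript of highest mean value, read in 2 of the series' 7 samples. The table gave 14919 such genes, and 10799 of them reached a floor of 5 scaled TPM in the higher of the 2 control libraries. HEL is an established human erythroleukaemia line that carries red cell and megakaryocyte genes at the same time. The group with hemin received 50 µM for 5 days and the other group was left unactivated, and each library was made from 250 ng of Trizol-extracted total RNA with the TruSeq RNA v2 kit. The labels give both groups as KAP1 WT, while the table heads their columns Ctrl. These were matched because KAP1 WT is the only other genotype among the HEL samples, and whether the control cells carried a vector is not stated in the labels. The rest of the series is a KAP1 knockdown HEL pair with and without hemin, whose values are set beside some results, and KAP1 chromatin profiles of mouse erythroblasts, and these profiles are not analysed here.

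Hemin is the oxidised, chloride-bound form of haem, the iron-containing pigment of haemoglobin. Haem that enters a cell binds the repressor BACH1 and releases it from DNA, which allows NRF2 with small MAF proteins to activate the enzymes that break haem down, store its iron and make glutathione. In erythroleukaemia lines hemin is also used to bring out haemoglobin and other red cell products. Free haem oxidises and unfolds proteins, and cells meet such damage with heat shock chaperones and with the proteasome, the barrel-shaped protease that degrades ubiquitin-tagged proteins.

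Each group was 1 library, so no difference below has a replicate check, no test was possible and no p-value is given. Levels are in scaled TPM, which is the deposited RPKM put on a common depth so that an average library sums to 1000000. Ratios are log2 of hemin over no hemin after 0.5 was added to each level, so ratios of low genes are understated. The 95% intervals come from the reads alone, without a pseudocount, and cover counting error only. A ratio of a low gene can therefore lie outside its own interval. Reads on the chosen transcripts numbered 37154896 with hemin and 33532869 without, and the median interval was 0.22 wide on the log2 scale. The table held no value of 0, so a gene without reads in some library may be missing from it. The erythroid markers summed to 59600 scaled TPM with hemin and 15590 without, and the megakaryocyte markers ITGA2B, GP9, ITGB3, GP1BA, PF4 and PPBP summed to 1286 with hemin and 2611 without. Fewer cells of a kind and less RNA per cell cannot be told apart in such bulk RNA. TRIM28, which encodes KAP1, stood at 399.9 scaled TPM with hemin and 421 without, but its row is among 5 that hold whole numbers of unknown origin.

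At least 2-fold higher with hemin were 281 genes, 2.6% of those at the floor, and 280 were at least 2-fold lower, 2.59%. These shares are the background of the list counts below, also where they are not repeated. A limit of 1.5-fold was passed by 998 genes upwards (9.24%) and by 887 downwards (8.21%). The median log2 ratio of all genes was -0.01, with 49.4% of ratios above 0 and 50.6% below. The whole counting interval lay past 2-fold for 184 higher (1.7%) and 215 lower genes (1.99%). Without scaling, the deposited values, which carry depth, gave 456 higher and 193 lower, and moved the median of all genes to 0.15. Differences past 2-fold were found at every level. Of 3620 genes at 5 to 20 scaled TPM, 105 were higher and 111 lower, and of the 141 genes at 1000 or more, 8 were higher and 3 lower. Among the 8 were 5 globin genes, FTL and RN7SL1, and the 3 were ITGA2B, PRG2 and LAPTM4B. LAPTM4B is named here after its values were seen.

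**Figure D1:**
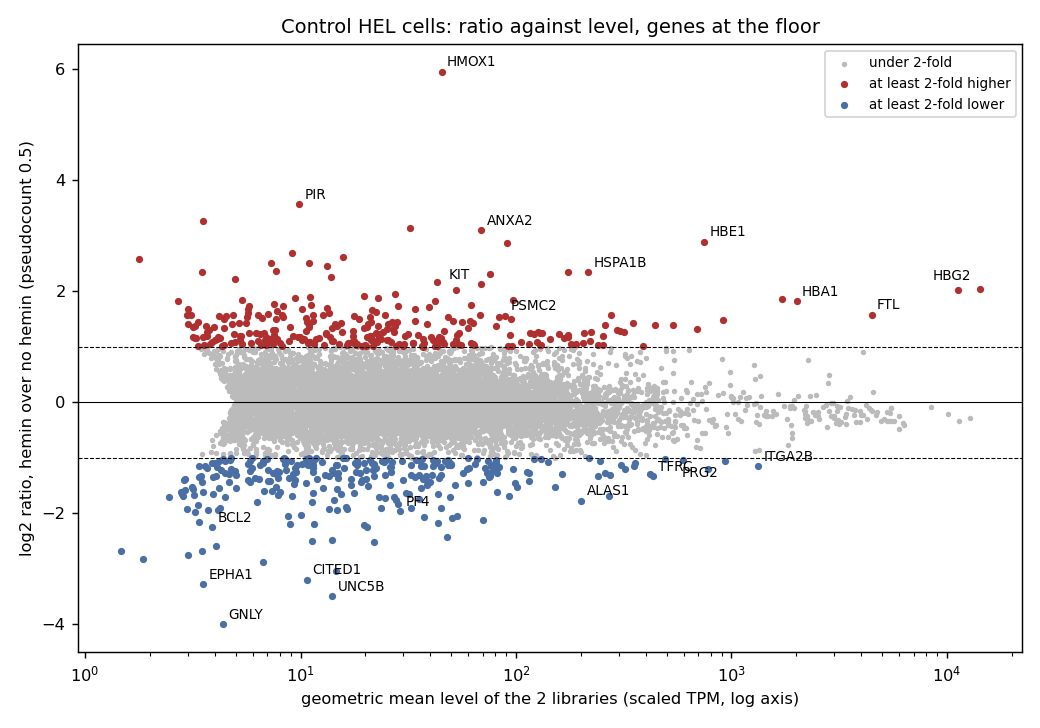
Log2 ratio of hemin over no hemin (vertical axis) against the geometric mean level of the 2 control libraries in scaled TPM (horizontal, log axis) for 10799 genes at the floor. Dashed lines mark 2-fold, red points are the 281 higher and blue points the 280 lower genes. HMOX1 stands apart at 5.95, and HBG2 is the most abundant gene past 2-fold.

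The gene furthest higher was HMOX1 (NM_002133), haem oxygenase 1, the enzyme that opens the haem ring. It stood at 371 scaled TPM with hemin and 5.50 without, a log2 ratio of 5.95 with an interval of 5.84 to 6.33. PIR encodes pirin, an iron-binding nuclear protein, and had 36.6 scaled TPM with hemin and 2.64 without, a log2 ratio of 3.56. These 2 genes were followed by HOXD1, a homeobox gene, at 13.3 scaled TPM with hemin and 0.944 without (3.26). ANXA2, which encodes a calcium-dependent membrane-binding annexin, had 203 scaled TPM with hemin and 23.3 without (3.10), and its retropseudogene ANXA2P2 had 97.4 with hemin against 10.6 without (3.14). Reads of ANXA2 and ANXA2P2 could have been shared between them, since their sequences are close. HBE1, embryonic epsilon globin, stood at 2026 scaled TPM with hemin and 273 without (2.89), and MLLT11, a gene first found as a leukaemia fusion partner, at 246 with hemin against 33.3 without (2.87). Next came SLC38A6, a member of the amino acid transporter family SLC38 (24.5 with hemin against 3.39 without, 2.68), and RBM11, an RNA-binding protein gene (40.1 with hemin against 6.15 without, 2.61). Further genes among the 15 with the highest ratios were C12orf60 (2.58), the dynein intermediate chain gene DYNC1I1 (2.51), the ganglioside synthase gene B4GALNT1 (2.51), the integrin gene ITGA11 (2.37) and HOXD-AS1 (2.34). HOXD-AS1 neighbours HOXD1, and the kit does not mark strand. Both groups of 15 were taken from genes whose whole interval lay past 2-fold. Among the 15 higher genes C12orf60, with 5.78 with hemin against 0.550 without, had the widest, 2.09 to 5.07.

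Among the genes furthest lower, GNLY, which encodes the cytotoxic granule protein granulysin, had 0.877 scaled TPM with hemin and 21.6 without, a log2 ratio of -4.01. UNC5B (NM_170744), a netrin receptor gene, stood at 3.94 scaled TPM with hemin and 49.7 without (-3.50, interval -3.82 to -3.50). EPHA1, an ephrin receptor tyrosine kinase gene, had 0.928 with hemin against 13.4 without (-3.28), and CITED1, a transcriptional coregulator gene, 3.31 with hemin against 34.5 without (-3.20). KIAA0125, a noncoding transcript, had 4.89 with hemin against 43.7 without (-3.04). LGALS12, a galectin gene, had -2.87. COL6A1, a collagen chain gene, stood at 0.969 with hemin against 9.39 without (-2.75), and NRP1, a co-receptor for semaphorins and VEGF, at 1.46 with hemin against 11.4 without (-2.60). TRIB1, a pseudokinase gene that directs degradation of C/EBP-alpha, had 8.94 with hemin against 53.7 without (-2.52). Also among them were INSL3 (-2.69), the co-stimulatory ligand gene ICOSLG (-2.68), the complement regulator gene CFP (-2.51), the phosphate transporter gene SLC34A1 (-2.49) and RETN, resistin (-2.42). Most of these genes were left near or below the floor with hemin, whereas RETN kept 20.6 scaled TPM with hemin against 112 without.

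**Figure D2:**
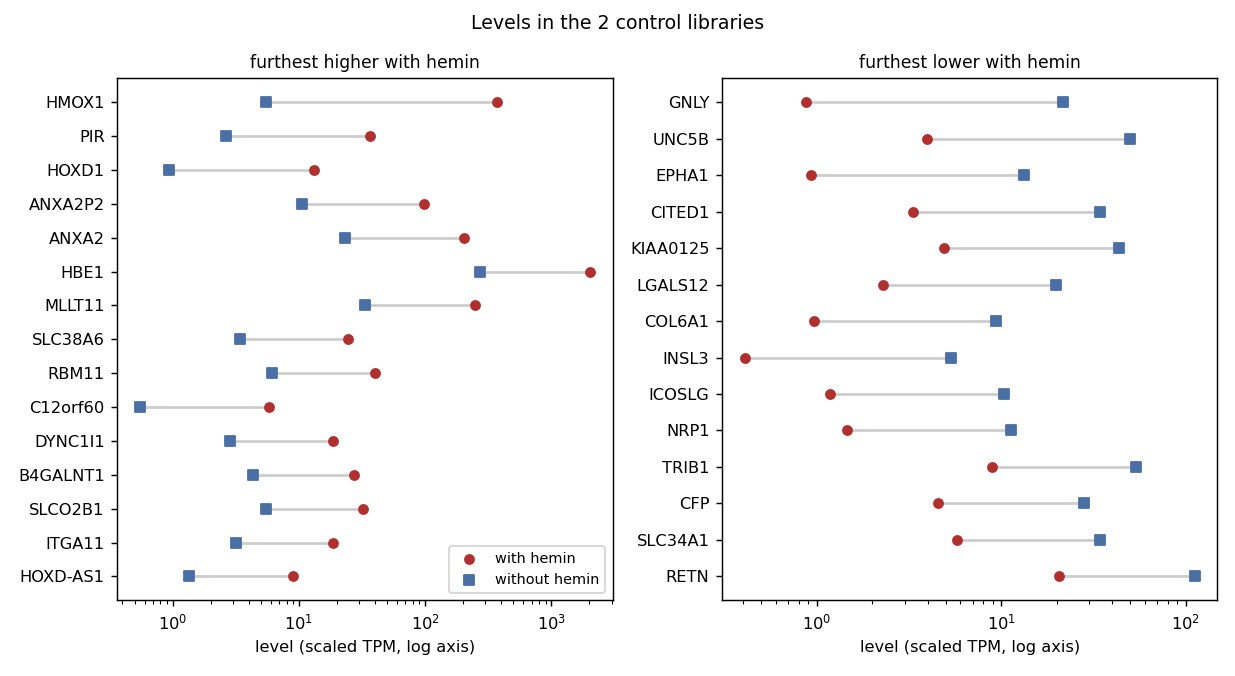
Level in scaled TPM on log axes of the 15 genes with the highest ratio (left) and of 14 of the 15 with the lowest (right), among those whose whole counting interval lies past 2-fold. Red circles are the library with hemin and blue squares the library without. HMOX1 spans from 371 with hemin to 5.50 without, and UNC5B from 3.94 with hemin to 49.7 without.

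The list of haem breakdown and of NRF2 or BACH1 targets had 24 genes at the floor and a median log2 ratio of 0.35. Of the 24, 5 were at least 2-fold higher, against 2.6% of all genes, and 0 lower. Beside HMOX1 these were FTL, ferritin light chain, at 7712 scaled TPM with hemin and 2593 without (1.57), BLVRB, a biliverdin reductase gene, at 474 with hemin against 160.0 without (1.56), NQO1, a quinone reductase gene, at 5.11 with hemin against 1.98 without (1.18), and GCLM, a subunit gene of glutamate-cysteine ligase, at 91.6 with hemin against 44.6 without (1.03). Haem breakdown, iron storage and glutathione synthesis were thus each represented. FTH1, the ferritin heavy chain, had 2951 with hemin against 1741 without (0.76), GCLC, the catalytic partner of GCLM, 63.3 with hemin against 36.2 without (0.80), and SLC48A1, a haem transporter of lysosomes, 96.8 with hemin against 56.2 without (0.78). Other genes often used as NRF2 targets lay close to 0: the cystine importer SLC7A11 at -0.01 and the sulfiredoxin gene SRXN1 at -0.04. HMOX2, the constitutive haem oxygenase, had 29.3 with hemin against 25.9 without (0.17). BACH1 itself stood at 114 with hemin against 75.5 without (0.59), NFE2L2, which encodes NRF2, at 62.6 with hemin against 59.4 without (0.08), and the small MAF gene MAFG at 186 with hemin against 78.9 without (1.23).

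Promoter stretches of GSTP1, CLIC2 and GCLM are shown because they hold the letters to which these factors are known to bind. GSTP1 and CLIC2 are outside the list above. GSTP1, a glutathione transferase gene chosen after its values were seen, had 160.2 with hemin against 56.4 without, with an interval of 1.40 to 1.62 on the log2 ratio. CLIC2, a chloride channel family gene chosen in the same way, had 42.5 with hemin against 16.8 without (1.31). The sequences are from RefSeq on GRCh38.p14 and end before the gene's start: GSTP1 at chr11:67583712-67583811 on the plus strand, CLIC2 at chrX:155334695-155334794 on the minus strand, and GCLM at chr1:93909431-93909530 on the minus strand. Capitals mark a Maf recognition motif in GSTP1 and CLIC2, which is TGCTGA followed by any base and TCA, and the core TGACNNNGC in GCLM, each searched on both strands.
GSTP1: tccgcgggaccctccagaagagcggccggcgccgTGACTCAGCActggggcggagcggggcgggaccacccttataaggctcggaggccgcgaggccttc
CLIC2: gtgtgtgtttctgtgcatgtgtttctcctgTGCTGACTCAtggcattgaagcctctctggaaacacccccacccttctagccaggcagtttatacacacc
GCLM: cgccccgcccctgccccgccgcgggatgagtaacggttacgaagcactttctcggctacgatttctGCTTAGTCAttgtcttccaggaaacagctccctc

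The Maf recognition motif, which contains an AP-1 like core, was rare. It stood in 0.399% of 27305 RefSeq promoters of 300 bases (250 before to 50 after the start) and in 13 of the 8602 genes at the floor that had a promoter there (0.151%). Among the genes at least 2-fold higher 4 of 197 held it (2.03%), and among those at least 2-fold lower 0 of 192. The 4 were GSTP1, CLIC2, LINC00152 and AC068491.1, and the last 2 carry the same stretch. The shorter antioxidant response core TGACNNNGC stood in 15.6% of the genes at the floor, in 37 of 197 higher genes (18.8%) and in 20 of 192 lower genes (10.4%). In the list of haem breakdown and of NRF2 or BACH1 targets, only 17 of 24 genes had a promoter there. HMOX1 had none, so it was not searched. The Maf motif stood in 0 of the 17 promoters. The shorter core stood in 3 of these 17 (17.6%), close to its share of the genes at the floor. A match is a description of letters and was not tested as a binding site.

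Globin genes had the highest median of the lists, 1.85. Of 9 members 6 were at least 2-fold higher and 1 was lower. The fetal gamma globin genes carried most of the RNA: HBG2 (NM_000184) stood at 28728 scaled TPM with hemin and 6982 without (2.04), and HBG1 at 22622 with hemin against 5610.3 without (2.01). The alpha globin genes HBA1 (3765 with hemin against 1069 without, 1.82) and HBA2 (3263 with hemin against 902 without, 1.85) followed. Members of each of these pairs are near-identical, so the split between them is uncertain. Globins together took 5.88% of the summed level with hemin and 1.43% without. The embryonic genes had the highest ratios, HBE1 as given above and HBZ, zeta globin, with 31.2 scaled TPM with hemin and 6.17 without (2.25). The adult gene HBB had 25.7 with hemin against 52.7 without (-1.02), the only globin below 0, while delta globin HBD had 11.9 with hemin against 9.31 without (0.34) and theta globin HBQ1 37.0 with hemin against 19.4 without (0.91). Embryonic, fetal and alpha globin RNA was thus higher, whereas adult beta globin was lower and stayed a trace beside HBG2.

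In the haem synthesis list 3 of 16 genes passed 2-fold upwards, against 2.6% of all genes, and 1 downwards, against 2.59%. The median was 0.28. The lower gene was ALAS1, the housekeeping form of the first enzyme of the pathway, which haem is known to repress, at 109 scaled TPM with hemin and 373 without (-1.77). ALAS2, the red cell form of the same enzyme, had 65.5 with hemin against 38.3 without (0.77). The higher genes were SLC25A37, mitoferrin, which imports iron into mitochondria (717 with hemin against 272 without, 1.40), FECH, ferrochelatase, the last enzyme (34.3 with hemin against 15.3 without, 1.14), and TMEM14C, a porphyrin transporter of the inner membrane (185 with hemin against 90.2 without, 1.03). The enzymes between them lay closer to 0, from ALAD at 0.46 and CPOX at 0.43 to UROD at -0.34. Of the enzymes named, ALAS1 and FECH differed most, in opposite directions.

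In the list of iron uptake and sensing, which holds neither the ferritin genes nor mitoferrin given above, 1 of 15 genes was past 2-fold and the median was 0.23. It was TFRC, the transferrin receptor that brings iron into the cell, at 271 scaled TPM with hemin and 687 without (-1.34). SLC39A14, an importer of non-transferrin iron, had 56.0 with hemin against 104 without (-0.89), and TFR2 118 with hemin against 171 without (-0.53). These uptake genes were lower, while NCOA4, the ferritin autophagy receptor, had 0.49 and the iron sensor gene FBXL5 0.49. Of 8 haem and porphyrin transporter genes, 1 was past 2-fold: SLCO2B1, an organic anion importer, at 32.2 with hemin against 5.50 without (2.44). ABCB6 had 0.77 and the proton-coupled folate and haem importer SLC46A1 -0.73.

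Red cell membrane and surface genes were mostly under 2-fold, with 2 of 27 higher, against 2.6% of all genes, and 0 lower. Their median was 0.24. EPB42 (NM_001114134), protein 4.2 of the skeleton, had 54.4 scaled TPM with hemin and 13.8 without (1.94). SPTB, beta spectrin, stood at 30.5 with hemin against 32.2 without (-0.08) and ankyrin ANK1 at 121 with hemin against 109 without (0.15). The anion exchanger SLC4A1 stayed under the floor, at 2.03 with hemin against 0.835 without. Skeleton genes thus did not share a common ratio. Among 29 transcription factor genes of the red cell and megakaryocyte lineages only MAFG passed 2-fold, and the median was 0.13. KLF1, the activator of adult beta globin, had 179 with hemin against 107 without (0.74), GATA1 345 with hemin against 314 without (0.14) and GATA2 725 with hemin against 794 without (-0.13). ETV6 had -0.70 and IKZF1 -0.67. In the list of the erythropoietin receptor and JAK2-STAT signalling, 0 of 16 were higher and 2 lower, with a median of -0.45. The lower genes were the feedback inhibitors CISH (42.4 with hemin against 116 without, -1.44) and SOCS1 (9.03 with hemin against 21.7 without, -1.22), and SOCS3 had -0.87. JAK2 stood at 307 with hemin against 169 without (0.86) and EPOR at 78.3 with hemin against 49.1 without (0.67).

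Proteasome genes differed as a group. At least 2-fold higher were 15 of 32 subunit and assembly genes, 0 were lower, 28 were at least 1.5-fold higher (2.6% and 9.24% of all genes at the floor passed these limits upwards) and all 32 had a ratio above 0, against 49.4% of all genes. The median was 0.97, the second highest of the lists after globins. Together they took 1.02% of the summed level with hemin and 0.522% without. The ATPase subunits of the cap, which unfold substrates, had a median of 1.22 over 6 genes, with PSMC2 at 153 scaled TPM with hemin and 51.8 without (1.56) and PSMC1 at 348 with hemin against 144 without (1.27). The beta ring, which holds the cutting sites, had a median of 1.04 over 7 genes, with PSMB4 at 867 with hemin against 330.3 without (1.39) and PSMB7 at 419.8 with hemin against 160.2 without (1.39). The other cap subunits had 1.01 over 11 genes, among them PSMD2 at 476 with hemin against 196 without (1.28) and PSMD3 at 492 with hemin against 205 without (1.26). The alpha ring, the gate of the barrel, was lowest with 0.74 over 7 genes. PSMA7, the most abundant member, had 885 with hemin against 696 without and the smallest ratio (0.35), and POMP, which helps to assemble the core, had 123 with hemin against 91.8 without (0.42). This division into rings and cap was made after the values were seen. In the KAP1 knockdown pair the same 32 genes had a median of 0.29, and 2 were at least 2-fold higher. Those 2 were PSMB1 (1.16 in knockdown and 0.90 in control cells) and PSMA1 (1.02 and 0.97). PSMB4 had 0.38 and PSMC2 0.28 in knockdown cells.

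**Figure D3:**
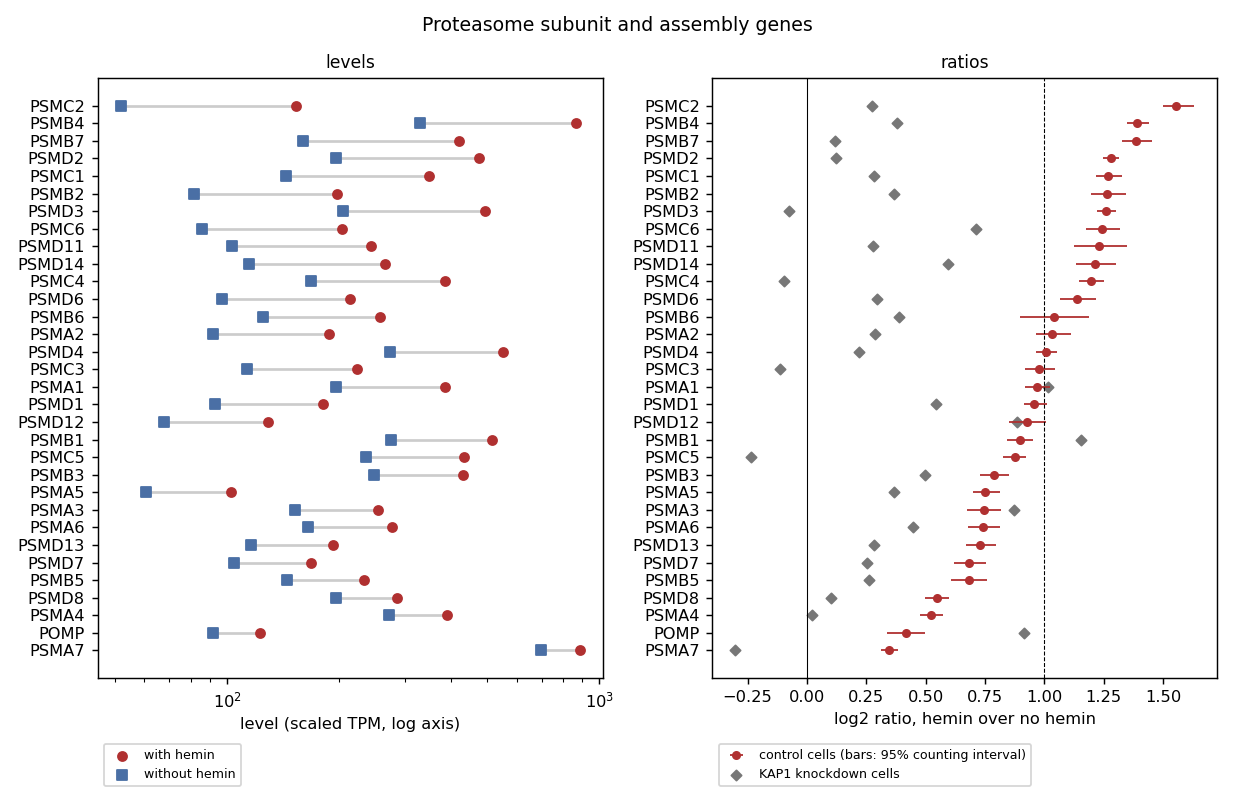
Left, level in scaled TPM (log axis) of 32 proteasome genes in the control library with hemin (red circles) and without (blue squares). Right, log2 ratios of hemin over no hemin in control cells (red, bars are 95% counting intervals) and in KAP1 knockdown cells (grey diamonds). All 32 control ratios lie above 0, from 0.35 for PSMA7 to 1.56 for PSMC2.

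The PSMD3 promoter is printed as the proteasome promoter with the TGACNNNGC core nearest before the start, and MLLT11 as a gene with a high ratio and that core before the start. Both were chosen after their values were seen. PSMD3 lies at chr17:39980707-39980806 and MLLT11 at chr1:151060297-151060396, both on the plus strand of GRCh38.p14 and from RefSeq, with the core in capitals on either strand.
PSMD3: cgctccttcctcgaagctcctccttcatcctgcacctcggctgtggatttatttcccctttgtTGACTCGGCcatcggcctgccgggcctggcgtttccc
MLLT11: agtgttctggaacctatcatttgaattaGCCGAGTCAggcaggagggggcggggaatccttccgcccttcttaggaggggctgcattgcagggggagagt

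Of the 27 proteasome genes with a promoter in that table, 5 held the core (18.5%), against 15.6% of the genes at the floor. A CCAAT box stood in 14 of the 27 (51.9%), against 37.3% of the genes at the floor. Most members with a ratio past 2-fold have no TGACNNNGC in this window, PSMC2, PSMB4 and PSMD2 among them.

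In the cytosolic heat shock list 5 of 21 passed 2-fold upwards, against 2.6% of all genes, and 0 downwards. The median was -0.03, and 0.13 in the deposited values without scaling. The inducible HSP70 genes led: HSPA1B had 489.6 scaled TPM with hemin and 96.1 without (2.34) and HSPA1A 392 with hemin against 77.4 without (2.33), and the near-identical coding sequences make their split uncertain. The co-chaperone genes DNAJB4 (37.3 with hemin against 14.2 without, 1.36), BAG3 (22.7 with hemin against 8.68 without, 1.34) and DNAJB1 (182 with hemin against 85.6 without, 1.08) followed. HSPA6, a strictly inducible HSP70, had 44.4 with hemin against 23.1 without (0.93). The other 15 members ranged from -0.50 to 0.75, 12 of them below 0. HSPD1, a mitochondrial chaperone gene, was the lowest at 311 with hemin against 439.9 without (-0.50), and HSPA8, which encodes the constitutive HSP70, stood at 1631 with hemin against 2185 without (-0.42). HSF2, a heat shock factor gene, had 33.5 with hemin against 19.7 without (0.75) and the small heat shock protein gene HSPB1 90.7 with hemin against 71.7 without (0.34). Chaperones of the endoplasmic reticulum had 0 of 20 past 2-fold in either direction and a median of -0.39, with HSP90B1 at -0.67 and HYOU1 at -0.77. The promoters of the 2 HSP70 genes are shown with the heat shock core GAANNTTC in capitals, from RefSeq on GRCh38.p14, HSPA1A at chr6:31815413-31815542 and HSPA1B at chr6:31827608-31827737, both on the plus strand.
HSPA1A: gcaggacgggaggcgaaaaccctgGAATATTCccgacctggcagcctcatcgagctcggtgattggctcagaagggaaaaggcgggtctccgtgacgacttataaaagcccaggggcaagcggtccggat
HSPA1B: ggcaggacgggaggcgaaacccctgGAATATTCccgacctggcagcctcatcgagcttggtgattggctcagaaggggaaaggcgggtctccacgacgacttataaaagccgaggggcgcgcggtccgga

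That core stood in 7 of 20 heat shock promoters (35%), in 4.52% of the genes at the floor, in 12 of 197 genes at least 2-fold higher (6.09%) and in 13 of 192 at least 2-fold lower (6.77%). The 7 were HSPA1B (2.34), HSPA1A (2.33), HSPA6 (0.93), HSPB1 (0.34), DNAJB6 (-0.03), DNAJA1 (-0.35) and HSPA8 (-0.42). DNAJB1 and BAG3 hold none in this window.

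Autophagy genes were mostly under 2-fold, though 22 of 29 autophagosome genes had a ratio above 0, against 49.4% of all genes. GABARAPL1, an ATG8 family gene, had 169 scaled TPM with hemin and 33.8 without (2.30). It was the only 1 of 29 autophagosome genes past 2-fold, and the list's median was 0.17. Its relatives GABARAP (0.37), GABARAPL2 (-0.02) and MAP1LC3B (-0.10) lay much lower. Among 19 mitophagy genes 1 passed 2-fold, with a median of 0.25: USP30, a mitochondrial deubiquitinase gene, at 12.3 with hemin against 4.71 without (1.30). The adaptor SQSTM1 had 255 with hemin against 133 without (0.94), the kinase TBK1 0.71 and OPTN 0.57. BNIP3L, the receptor that clears mitochondria from maturing red cells, had 142 with hemin against 92.7 without (0.62). Its row holds whole numbers, so this ratio has no interval.

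Megakaryocyte and platelet genes had the lowest median of the lists, -0.79. Of 20 at the floor, 8 were at least 2-fold lower, against 2.59% of all genes, 0 were higher, and 16 were below 0, against 50.6% of all. ITGA2B, the alpha chain of the platelet fibrinogen receptor, stood at 891 scaled TPM with hemin and 1989 without (-1.16). The platelet chemokine genes PF4 (14.5 with hemin against 58.3 without, -1.97) and PPBP (1.34 with hemin against 6.52 without, -1.93), the collagen receptor GP6 (14.9 with hemin against 54.2 without, -1.83) and the von Willebrand receptor chain GP1BA (47.6 with hemin against 120.4 without, -1.33) were lower too. ANGPT1, angiopoietin 1, had -1.38, TREML1 -1.08 and GP1BB -1.03. Genes of the lineage that differed less were ITGB3, the partner of ITGA2B, at 154 with hemin against 204 without (-0.41), and GP9 at 178 with hemin against 232 without (-0.38). TUBB1, platelet tubulin, was at 33.6 with hemin against 23.8 without (0.49). In the knockdown pair the list's median was 0.05, with PF4 at 0.85 and ITGA2B at -0.34.

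Markers of other blood cells gave mixed values. Of 6 monocyte and granulocyte genes, CD68, a lysosomal glycoprotein, was higher at 114 with hemin against 33.6 without (1.75) and the neutrophil protease gene CTSG lower at 4.22 with hemin against 14.6 without (-1.68). Of 9 mast cell, basophil and eosinophil genes, PRG2, eosinophil major basic protein, was past 2-fold at 647 with hemin against 1345 without (-1.06), while HDC, which makes histamine, had 1594 with hemin against 1148 without (0.47). Among 7 T and B cell genes 3 were at least 2-fold lower, GNLY, CD79A (8.51 with hemin against 28.0 without, -1.66) and IL7R (7.64 with hemin against 16.8 without, -1.09). Stem and progenitor genes included the stem cell factor receptor KIT, at 144 scaled TPM with hemin and 32.7 without (2.12), and THY1, at 51.2 with hemin against 167 without (-1.70), the largest differences in either direction among 7.

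Of 16 receptor and adhesion genes 4 were at least 2-fold lower, against 2.59% of all genes, and 0 were higher. With a median of -0.46, 13 were below 0, against 50.6% of all genes. Beside UNC5B, EPHA1 and COL6A1 the fourth was CXCR4, a chemokine receptor, at 7.63 with hemin against 27.1 without (-1.76). PECAM1 had -0.96 and NOTCH1 -0.65, while the main integrins of the line lay nearer 0, ITGB1 at -0.34 and ITGA4 at 0.18. All 13 ID and TGF-beta or BMP genes at the floor were below 0, with a median of -0.73. The feedback regulators SKIL (14.9 with hemin against 51.6 without, -1.76) and SMAD7 (1.41 with hemin against 5.71 without, -1.70) were past 2-fold. ID2 had 26.8 with hemin against 52.4 without (-0.96), ID1 67.5 with hemin against 113 without (-0.74) and the receptor TGFBR1 33.2 with hemin against 59.3 without (-0.83).

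Immediate early and MYC-related genes held 1 higher and 2 lower of 19. JUN stood at 12.8 with hemin against 3.92 without (1.59), MYC at 878 with hemin against 456 without (0.94) and JUNB at 105 with hemin against 59.9 without (0.80). The repressor BHLHE40 (59.5 with hemin against 164 without, -1.46) and the ERK phosphatase DUSP6 (28.4 with hemin against 71.4 without, -1.32) were lower. The alpha-arrestins ARRDC3 (10.8 with hemin against 2.66 without, 1.84) and ARRDC4 (26.4 with hemin against 12.6 without, 1.04) were higher, while TXNIP, their best known relative, had 40.9 with hemin against 38.7 without (0.08). ARRDC2 had 0.28, and ARRDC1 was on the other side, at 15.4 with hemin against 22.3 without (-0.52). Of 12 BCL2 family genes 2 were lower, BCL2 at 1.59 with hemin against 9.45 without (-2.25) and BCL2A1, just past the limit, at 3.24 with hemin against 6.97 without, and the pro-survival gene BCL2L1 had 295 with hemin against 422 without (-0.51).

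Genes of cell division were lower by modest amounts. In the DNA replication list 27 of 30 were below 0, 14 were at least 1.5-fold lower, 3 at least 2-fold lower and 0 higher, with a median of -0.57. The shares of all genes were 50.6% below 0, 8.21% at least 1.5-fold lower and 2.59% at least 2-fold lower. CDC45, a helicase cofactor, had 9.40 with hemin against 23.5 without (-1.28), thymidine kinase TK1 29.4 with hemin against 62.3 without (-1.07) and RRM2, a ribonucleotide reductase subunit, 46.2 with hemin against 94.3 without (-1.02). The other reductase subunit RRM1 had 39.8 with hemin against 34.8 without (0.19). The MCM2 to MCM7 helicase genes ranged from -0.84 for MCM4 to -0.38 for MCM5. Mitosis genes had a median of -0.41, with 25 of 28 below 0 and FOXM1 past 2-fold (12.6 with hemin against 26.9 without, -1.07). The proliferation marker MKI67 stood at 17.7 with hemin against 33.6 without (-0.90), and CCNB1, cyclin B1, at 31.0 with hemin against 26.6 without (0.22). Of 19 G1 genes, cyclin D1 CCND1 was lower (9.86 with hemin against 31.7 without, -1.64) and the inhibitor CDKN1A higher (7.17 with hemin against 3.17 without, 1.06). CCND3, the most abundant D cyclin here, had 402 with hemin against 503 without (-0.32).

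Metabolic lists were mostly within 2-fold. Amino acid stress genes downstream of ATF4 held 1 higher and 3 lower of 23, with a median of -0.38. The serine synthesis genes PSAT1 (167 with hemin against 403 without, -1.27) and PHGDH (207 with hemin against 455 without, -1.13) and the transaminase GPT2 (-1.07) were lower, and PPP1R15A, which restores translation after stress, was higher at 273 with hemin against 132 without (1.04). EIF2AK1, the haem-regulated kinase upstream of this pathway, had 152 with hemin against 115 without (0.40). Cholesterol genes had 0 of 26 past 2-fold and a median of -0.32. Of 27 glycolysis and pentose phosphate genes hexokinase HK2 was lower (38.9 with hemin against 90.5 without, -1.21), PKM2 had -0.95 and ENO2 0.96. The metallothionein genes MT1E (-1.39) and MT1F (-1.45) were past 2-fold of 10 in their list. Respiratory chain genes had 0 of 78 past 2-fold and a median of -0.05, which was 0.11 in the deposited values without scaling. Ribosomal protein genes had 0 of 84 past 2-fold, yet 73 were below 0, against 50.6% of all genes, with a median of -0.19 (-0.04 in the deposited values without scaling), and their share of the summed level was 24.3% with hemin and 28.0% without.

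RNAs that lack a poly-A tail also differed, and such RNAs depend on how poly-A selection worked in each library. Among 5 structural RNAs, 2 passed 2-fold upwards and 1 downwards, with RN7SL1 at 1089 with hemin against 437 without (1.31), and 28S ribosomal RNA stood at 5543 with hemin against 2979.6 without (0.90). Clustered histone genes, which also mostly lack the tail, had 6 of 22 higher, against 2.6% of all genes, and 0 lower. Their median was 0.53, with HIST1H4H at 15.7 with hemin against 4.36 without (1.74). Its interval was wide, 1.22 to 2.53. The part of library making in these ratios was not tested. Interferon genes had a median of 0.15 and held 2 of 25 higher, against 2.6% of all genes. The 2 were IFI44 (92.4 with hemin against 20.2 without, 2.17) and ISG20 (22.3 with hemin against 7.21 without, 1.57). Zinc finger genes, many of which encode partners of KAP1, had 3 of 347 higher, against 2.6% of all genes, and 0 lower. Their median was 0.06, and the 3 included ZFP36 (42.1 with hemin against 15.5 without, 1.41), which binds RNA.

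**Figure D4:**
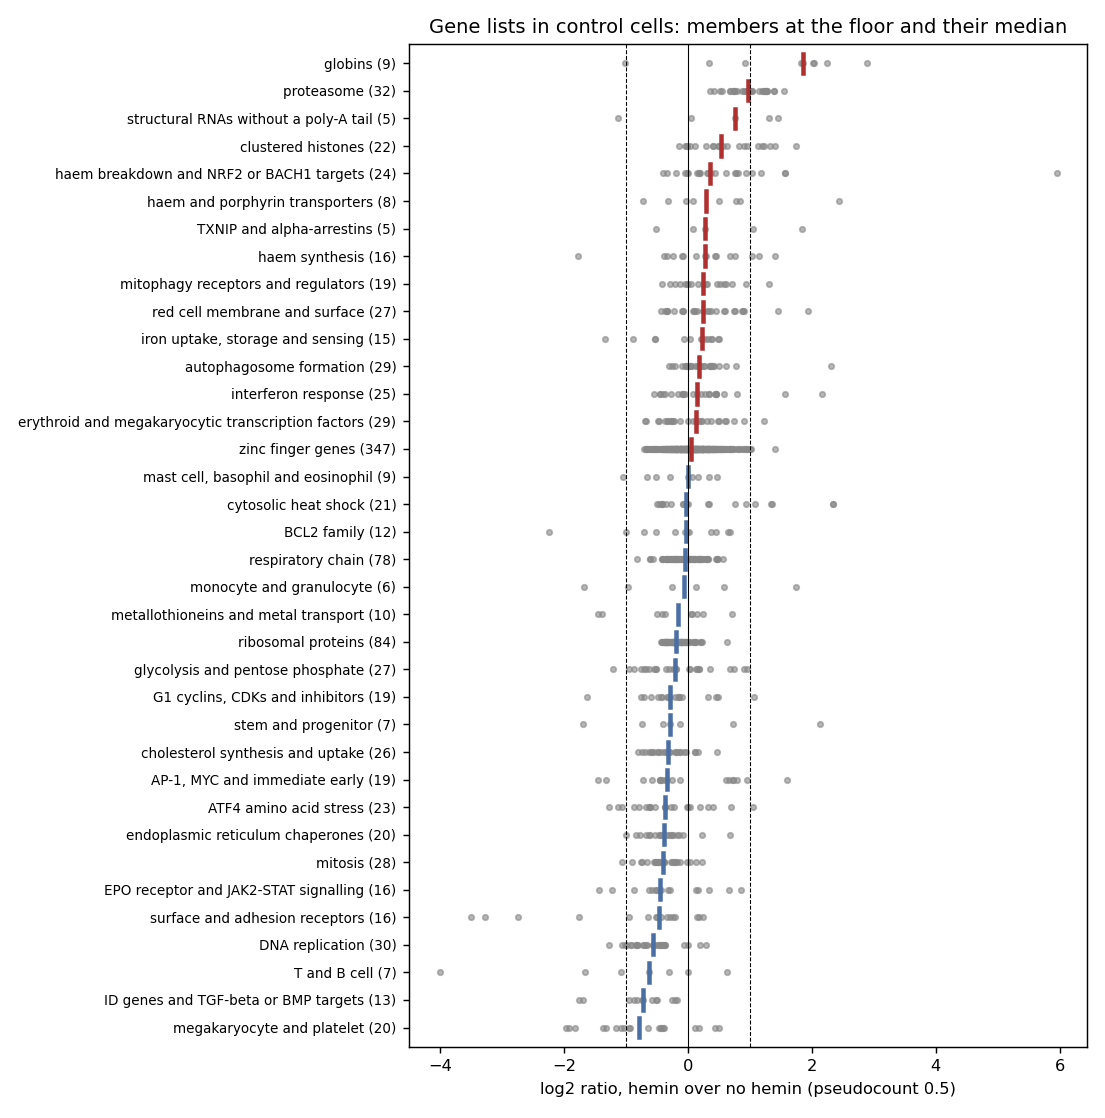
Log2 ratio of hemin over no hemin in control cells (horizontal axis) for the members at the floor of each gene list, with their number in brackets. Grey points are genes, coloured bars are list medians (red above 0, blue below), and dashed lines mark 2-fold. Globins (1.85) and proteasome genes (0.97) have the highest medians, and megakaryocyte genes (-0.79) the lowest.

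Transcripts of the same gene mostly gave the same ratio. They overlap and can draw on the same reads, so this likeness is not a separate check of the ratios. In 4033 genes with 2 or more transcripts at the floor and at least 100 reads, the median of the largest difference was 0.02 on the log2 scale. In 6 genes it reached 1, and in 0 did transcripts pass 2-fold in opposite directions. The largest was in RPS24, where a minor form had 7.01 scaled TPM with hemin and 2.64 without and another form 167 with hemin and 266 without. RPL17, DYX1C1-CCPG1, PQBP1, KCTD7 and PDE4DIP were the others. In these 6 genes too the transcripts overlap, and how the authors divided shared reads is not stated.

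Some genes past 2-fold are next to each other in the genome. Among 10506 neighbouring pairs of genes at the floor, by gene order on GRCh38, 23 had both members at least 2-fold higher, 27 both lower and 10 had 1 of each. Of single genes at the floor 2.6% were higher and 2.59% lower. How many such pairs would arise from these shares alone was not worked out, so the counts are descriptions. TOM1, beside HMOX1, had 11.4 with hemin against 3.53 without (1.56), and HSPA1L, beside HSPA1A, 5.96 with hemin against 1.52 without (1.67). The beta-like genes HBG1, HBG2 and HBE1, the alpha-like genes HBZ, HBA2 and HBA1, and PF4V1, PF4 and PPBP formed runs of 3. APOL2 with APOL1 and MT1E with MT1F were further pairs. Several of these are families of close copies that may share reads.

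The KAP1 knockdown pair gave a second reading of hemin in the same cell line, in libraries not shared with the control pair. In knockdown cells 251 of 10828 genes passed 2-fold upwards (2.32%) and 184 downwards (1.7%). Of 248 genes past 2-fold upwards in control cells and at the floor in both pairs, 60 were also at least 2-fold higher in knockdown cells (24.2%), against 2.13% of all 10465 genes at the floor in both. The ratio was above 0 for 222 of them (89.5%), against 50.2% of all. Of 246 lower genes 57 were also at least 2-fold lower (23.2%), against 1.34% of all, and 204 were below 0 (82.9%), against 49.8%. These genes were chosen by their control ratio, so the medians of the 2 pairs are not compared. They were 1.25 in control and 0.55 in knockdown cells for higher genes, and -1.28 in control and -0.61 in knockdown cells for lower genes. HMOX1 had 5.95 in control and 4.36 in knockdown cells, HBG2 2.04 and 2.18, and UNC5B -3.50 and -3.85. GNLY had -4.01 in control and -0.16 in knockdown cells, where it was under the floor in both libraries, at 1.27 scaled TPM with hemin and 1.47 without. HSPA1B had 2.34 in control and 0.52 in knockdown cells, PIR 3.56 and 1.11, and HOXD1 3.26 and 0.56. The difference between the pairs was not tested, since each rests on 1 library a side.

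**Figure D5:**
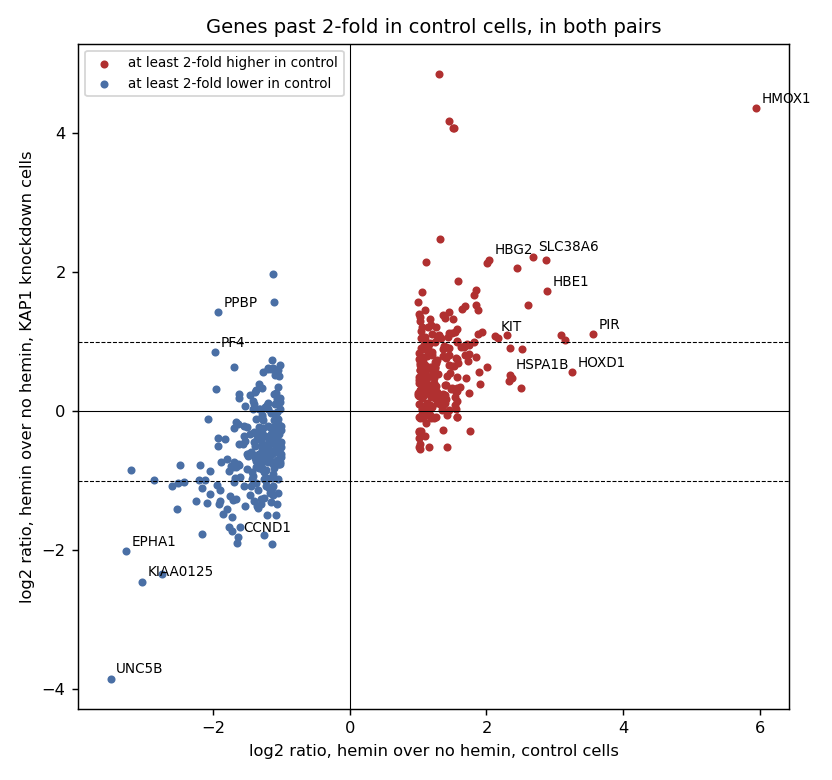
Log2 ratio of hemin over no hemin in KAP1 knockdown cells (vertical axis) against that in control cells (horizontal) for the genes past 2-fold in control cells and at the floor in both pairs. Red points are the 248 higher and blue points the 246 lower genes, and dashed lines mark 2-fold in knockdown cells. Most red points lie above 0 (222) and most blue points below (204), and HMOX1 and UNC5B are far out in both pairs.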

How the data were processed

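The deposited table holds RPKM values, by its file header, for RefSeq transcripts. The submitters' processing notes name Bowtie and hg19 and give neither a version nor a role. Further steps of the authors are not stated in these sources. There were 24538 rows, 24408 transcripts and 14946 gene symbols. RPKM values were whole multiples of a step per row, and whole reads were recovered in 24533 of 24533 rows that were not whole numbers, within 0.0002 reads plus a relative 4e-09. The other 5 rows (TRIM28, BNIP3L, BECN1, ATG12 and a BAD transcript) have no reads. Where the reads of a row share a common factor, they came out too low by that factor, and the interval is then too wide.

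Since the values carry depth, they were divided by the step factor and by an effective read total, with factors from the trimmed mean of log ratios (trims of 0.3 and 0.05) over the 4 HEL libraries, and set to a mean sum of 1000000. Genes entered at a floor of 5 scaled TPM in the higher library, ratios used a pseudocount of 0.5, and limits were 2-fold and 1.5-fold. Intervals are exact conditional binomial intervals at 95% on reads without molecular identifiers. Scripts used Python 3.11.15, numpy 2.4.6, pandas 2.3.3 and scipy 1.17.1, and were tested on simulated data.

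Named were the 15 highest and 15 lowest ratios with the whole interval past 2-fold, up to 6 members a list, genes opening a group by role, all globins, the most abundant genes and the 6 largest transcript differences. A few genes that this rule names are not reported here. Other genes with values, most of them members of the same lists, were chosen after their values were seen. The members and lists were chosen with earlier results of these data known. Promoters were matched by RefSeq accession, for 8602 of the 10799 genes at the floor.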

Additional observations from a re-analysis of the deposited data

Results flagged for a closer look

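Among the named genes at the floor in both pairs and with both counting intervals clear of 0, 7 had a ratio of at least 1.5-fold in opposite directions in the control and the KAP1 knockdown pair. Each was untested, since both pairs have 1 library a side. The platelet chemokine gene PPBP had -1.93 on the log2 scale in control and 1.42 in knockdown cells, a difference of -3.35, and PF4 had -1.97 and 0.85, a difference of -2.82. PPBP rests on low levels, 1.34 scaled TPM with hemin and 6.52 without in control cells. The small nucleolar RNA gene SNORA73B had -1.13 and 1.97, a difference of -3.10. Other structural RNAs were also far higher with hemin in knockdown cells, where the list's median was 2.49 against 0.77 in control cells. TGFBR1 differed by -1.71 (-0.83 in control, 0.88 in knockdown cells), adult globin HBB by -1.69 (-1.02 and 0.66) and the eosinophil gene PRG2 by -1.65 (-1.06 and 0.60). The ribosomal protein gene RPL39L went the other way, with 0.63 in control and -0.61 in knockdown cells, a difference of 1.25. No cause was tested for any of the 7.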

How the results depend on the processing

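No named gene past 2-fold changed sign under any setting run, and the globin median, the only list median past 2-fold, stayed above 1 on the log2 scale in each. The count of genes at least 2-fold higher with hemin, 281 as reported, was 456 with the deposited values as they stand, 176 with a floor of 20 and 184 with the whole interval past 2-fold. The count lower, 280, was 169 with a floor of 20. A floor of 20 tests fewer genes, 7179 in place of 10799. The remaining settings gave 208 to 404 higher and 193 to 414 lower. Of 113 named genes past 2-fold, 13 were no longer so with a pseudocount of 2, 10 with the deposited values (HBB, PRG2, TK1, RRM2, FOXM1 and PHGDH among them) and 1 (BCL2A1) with plain library totals or equal medians. Among all named genes RPS25 and TRIM28, both near 0, changed sign with the deposited values. Medians near 0 changed sign in up to 5 lists, among them heat shock and respiratory chain genes with the deposited values. No paired analysis was possible because each group has 1 library. For the same reason no replicate could be left out, and depth bears only on the counting intervals, not on the spread between cultures.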

Other observations

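Several gene groups outside the lists were looked at after the values were seen, so their counts are descriptions. Genes that feed the proteasome differed in part. UFD1L, a cofactor of the p97 segregase, stood at 82.6 scaled TPM with hemin and 28.1 without (1.54 on the log2 scale), NSFL1C at 72.7 with hemin against 29.7 without (1.28), VCP, p97 itself, at 235 with hemin against 132 without (0.83), and the proteasome ubiquitin receptor ADRM1 at 341 with hemin against 168 without (1.02). The interferon-inducible subunits and the PA28 activator did not share these ratios: PSMB8 had 164 with hemin against 169 without (-0.05), PSMB9 142 with hemin against 152 without (-0.09), PSMB10 83.1 with hemin against 88.5 without (-0.09), PSME1 208 with hemin against 259 without (-0.32) and PSME2 181 with hemin against 236 without (-0.38). NFE2L1, which encodes a factor known to activate proteasome genes, had 74.1 with hemin against 96.5 without (-0.38).

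Most genes known from cytotoxic lymphocytes that reached the floor were lower in the library with hemin. Of 14 listed, 11 had values and 9 were at the floor. Of these 9, 7 were at least 2-fold lower, against 2.59% of all genes, with a median of -1.53. Beside GNLY these included perforin PRF1 at 25.9 with hemin against 109 without (-2.05), the protease gene CTSW at 267 with hemin against 656 without (-1.30), the adaptor genes HCST at 89.2 with hemin against 258 without (-1.53) and TYROBP at 27.2 with hemin against 71.3 without (-1.38), the receptor NCR3 at 17.7 with hemin against 57.0 without (-1.66) and the interleukin 2 receptor chain IL2RB at 6.34 with hemin against 20.8 without (-1.64). NKG7 had 5.18 with hemin against 5.16 without (0.01) and KLRK1 7.10 with hemin against 7.21 without (-0.02). Of 4 defining T cell markers, CD3E and CD3D had no values. CD2 had 59.1 with hemin against 73.5 without, and CD8A, under the floor in both libraries, 0.0542 with hemin against 0.599 without. In the knockdown pair the median of the 9 was -0.19, and GNLY and NKG7 were under the floor there. The ETS factor genes ETV5 (35.8 with hemin against 99.5 without, -1.46), ETV4 (9.12 with hemin against 24.3 without, -1.37) and ETS1 (173 with hemin against 429.6 without, -1.31) were at least 2-fold lower, and 7 others lay within 1.5-fold. Of 6 genes of MHC class II and its invariant chain 1 was past 2-fold, CD74 at 105 with hemin against 256 without (-1.29), and the median was -0.68. HLA-DMA had 55.1 with hemin against 34.4 without (0.67). In the vacuolar proton pump, 2 of 14 subunit genes were at least 2-fold higher, against 2.6% of all genes. They were ATP6V1A at 142 with hemin against 61.6 without (1.20) and ATP6V0A1 at 154 with hemin against 72.0 without (1.09). The median of the 14 was 0.17.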
